A study of Mus musculus with 18 samples.

Results

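The Clca genes of the mouse encode a family named for its regulation of calcium-activated chloride channels. All 7 listed genes (Clca1, Clca2, Clca3a1, Clca3a2, Clca3b, Clca4a and Clca4b) were found by their NCBI gene identifiers in a table of 18349 genes, with no use of their expression. The 18 libraries, in 5 groups, hold bulk RNA of the whole colon of C57BL/6 male mice, all labelled as genotype WT. The Control group (n = 3) drank water. The other 4 groups drank 2.5% dextran sulfate sodium (DSS), which damages the lining of the colon, for 7 days and were then gavaged daily for 5 weeks. The DSS group (n = 3) received PBS. The remaining groups received a suspension of Lactobacillus plantarum: strain ZJ316 in the WT group, ZJ316-KO in the KO group, and ZJ316-COM in the COM group (n = 4 each). In the group names WT and KO refer to the bacterium and not to the mice. What KO and COM abbreviate is not stated in the labels, which mention no gavage of the Control mice. They do not tie libraries to single animals either, and p-values therefore reflect no more than the variation between libraries, which may be technical. The 15 libraries of the 4 groups that drank DSS are called DSS-treated.

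CLCA proteins pass through the secretory pathway and are cleaved by their own protease domain. They are no longer thought to form channels themselves, and CLCA1 acts on the calcium-activated chloride channel TMEM16A, the product of Ano1. In the intestine CLCA1 is secreted by goblet cells and is an abundant, proteolytically active component of the mucus, whereas Clca4a has been described in enterocytes that are not goblet cells. Clca3a1 has been described in lymphatic endothelium, and Clca2 in stratified squamous epithelium.

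The 7 genes lie side by side over 370 kb of chromosome 3 (144729677 to 145099443, GRCm38.p6). Their order by coordinate is Clca3a1, Clca3a2, Clca3b, Clca4b, Clca4a, Clca1 and Clca2. Clca3a2 and Clca3b are separated by 2999 bp, and Clca4b and Clca4a by 19956 bp. Paralogs in the cluster are close in sequence. The longest coding transcripts (GENCODE M21) of Clca4a and Clca4b were identical at 95.6% of aligned bases, and those of Clca3a1 and Clca3a2 at 96.4%. Clca3b was 81.9% identical to Clca3a1 and 81.2% to Clca3a2. Reads from these genes can be split or misassigned by a counting program. Of all 100-base windows, 6.49% of the Clca4b transcript and 17.3% of the Clca4a transcript also occurred in a transcript of another gene. For Clca4a the gene sharing most windows was Clca4c-ps, a transcribed pseudogene of the cluster. Clca4c-ps has no row in the table of genes, so it could not be analysed, and where its reads were counted is unknown. The share was 8.67% for Clca3a1, 8.86% for Clca3a2, 0.552% for Clca3b, and 0 windows for Clca1 and Clca2. How the authors treated shared reads is not stated in the labels or the table. Values of Clca3a1, Clca3a2, Clca4a and Clca4b are therefore uncertain to an extent that these shares do not measure. In Control, Clca4b lay at 2.94 to 15.64 FPKM beside Clca4a at 182.91 to 248.56 FPKM. Whether reads of Clca4a were counted for Clca4b there was not tested.

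Values are in FPKM, which divides fragments by transcript length and by library size, so that levels of different genes can be compared per length. Library totals ranged from 517933 to 558590 FPKM, and the number of reads is unknown. Some libraries stood apart in transcripts of other cell types or positions. Pancreatic acinar genes were high in DSS 1, DSS 3 and KO 3. Genes of squamous epithelium such as Krt5 were high in DSS 2, COM 3, WT 2, WT 4 and KO 3. The mean over 7 Hox genes of the distal gut was low in Control 3, KO 2 and DSS 3, which are called low in Hox genes. In KO 2 and DSS 3 not all of these genes were low. Hoxa11 and Hoxa13 lay at 13.59 and 11.22 FPKM in KO 2. In DSS 3 Hoxb13 lay at 199.13 FPKM, against 196.11 FPKM in DSS 1, and the low genes there were those of the Hoxd group. For Hoxb13 the level in Control 3 was 0.76 FPKM, and the next lowest, in KO 2, was 79.33 FPKM. In bulk tissue, fewer cells of a type and less RNA per cell cannot be told apart.

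Clca1 was the most abundant member in all 18 libraries. In Control, the order of mean FPKM was Clca1, Clca4a, Clca3b, Clca4b, Clca3a2, Clca3a1 and Clca2. The ranges of Clca4b and Clca3a2 overlapped there, as did those of Clca3a2 and Clca3a1. In each of the 4 DSS-treated groups Clca4b lay at a mean of 164.5 to 357.9 FPKM. Its range overlapped with that of a gene next to it in mean FPKM, Clca4a in DSS and WT and Clca3b in KO and COM. It did not overlap with the gene on the other side in mean FPKM, Clca3a2 in DSS, KO and COM and Clca1 in WT. Summed over the family, levels were 772, 1673 and 1753 FPKM in Control and 1825 to 4052 FPKM in the DSS-treated libraries, without overlap. This sum was 0.257% ± 0.0956 of all FPKM in Control (SD, n = 3) and 0.561% ± 0.118 in the DSS-treated libraries (n = 15). Clca1 made up 74.9% ± 10.6 of the family sum in Control and 72.7% ± 7.15 in the DSS-treated libraries. The share of Clca4b was 0.533% ± 0.385 in Control and 7.85% ± 4.31 in the DSS-treated libraries.

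**Figure D1:**
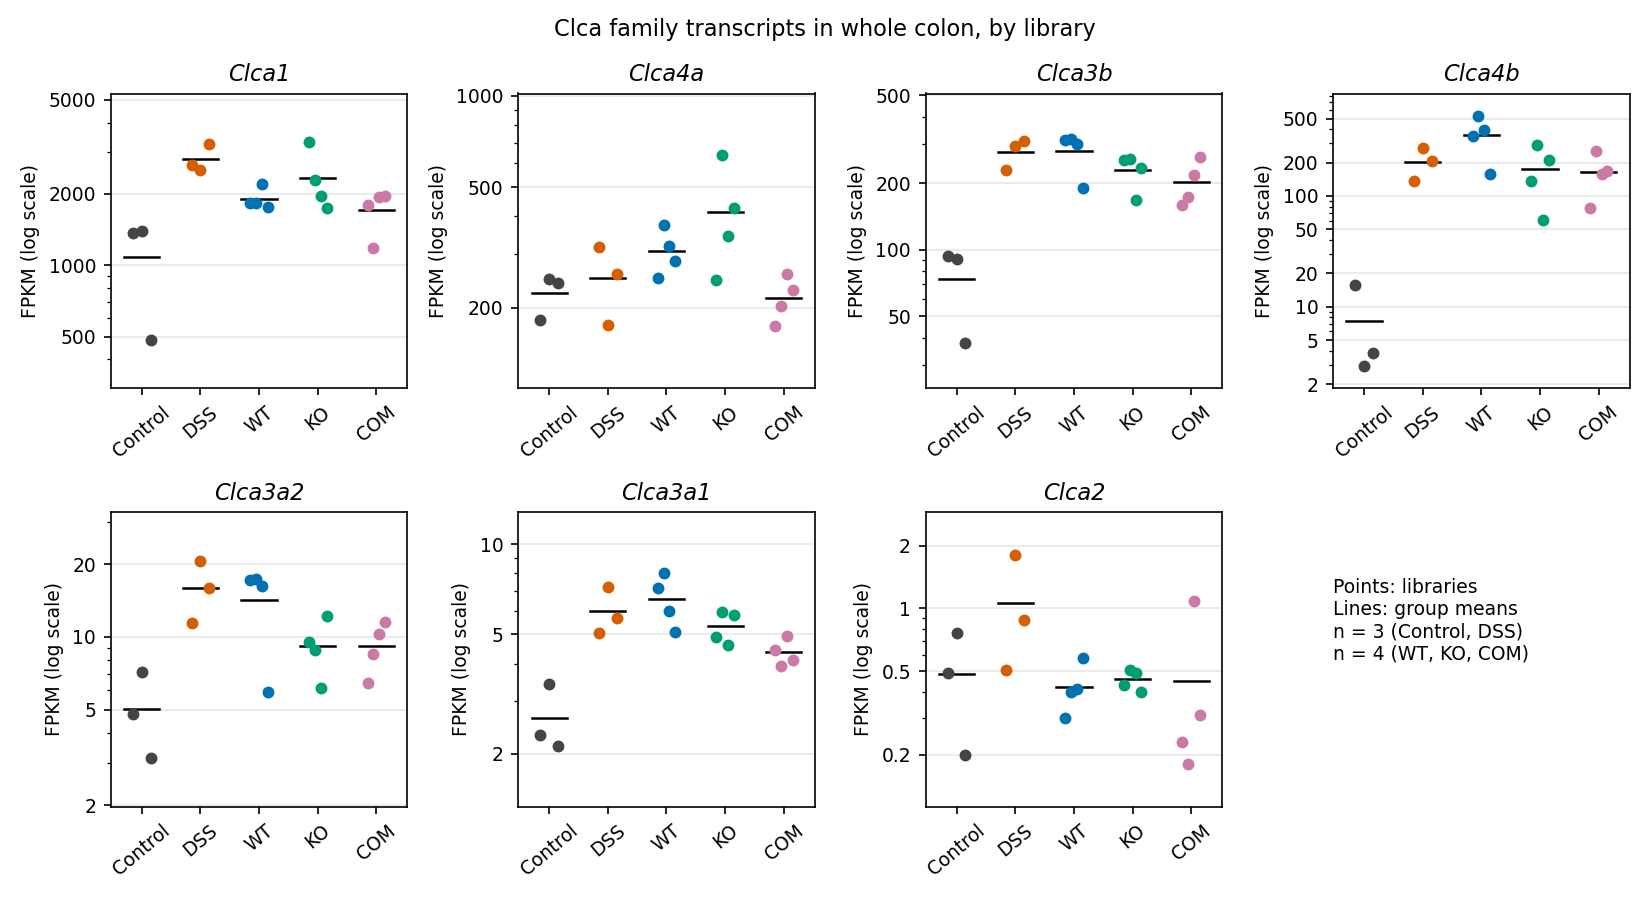
FPKM of the 7 Clca genes on log axes, by group (n = 3 for Control and DSS, n = 4 for WT, KO and COM). Points are libraries and lines are group means. All DSS-treated libraries lie above all Control libraries for Clca4b, Clca3b and Clca3a1, as they do for 4.2% of all tested genes. For Clca4a, DSS, KO and COM overlap with Control, and the WT libraries lie above Control, the lowest of them only just.

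The comparison of the DSS group with Control asks how the colon after DSS and PBS gavage differed from the untreated colon, and those of WT, KO and COM with Control ask the same after gavage of each strain. Changes are log2 fold changes of FPKM + 1 ± SE from limma, a linear model fitted over all genes, with Benjamini-Hochberg adjusted p, and a gene was called at an adjusted p under 0.05. The pseudocount of 1 understates changes of genes with low FPKM. Of the 7 genes, 6 were tested, and each of these lay above the filter of 1 FPKM in all 18 libraries. Clca2 reached 1 FPKM in only 2 libraries and was not tested. In DSS 5 of 6 members rose, where 16.9% of all tested genes were called and 11.6% were called higher. In WT 5 of 6 rose (23.1% of all called, 14.7% higher), in KO 4 of 6 (5.14% and 3.69%) and in COM 3 of 6 (7.6% and 5.26%). No member fell. The median change over the 6 members was 1.51, 1.17, 1.01 and 0.78 in DSS, WT, KO and COM, against 0.051, 0.05, 0.026 and 0.034 over all 13263 tested genes. For the unweighted mean of the 4 DSS-treated groups, 5 of 6 members rose (21% of all called, 13.8% higher). These comparisons share the Control libraries. In the fits on fewer libraries listed next, fewer members and also fewer of all genes were called than with all libraries. Fitted on the compared groups alone, 0 members were called in DSS, KO or COM and 3 in WT, where 0%, 0.0151%, 0.113% and 7.66% of all tested genes were called. Without Control 3, 3 members were called in WT and 3 in the DSS-treated mean (14.1% and 11.7% of all genes). Without the 3 acinar-rich libraries 3 members were called in DSS (3.21% of all genes). Without the libraries low in Hox genes 3 were called in DSS, 3 in WT, 2 in KO and 3 in the DSS-treated mean (9.21%, 16.4%, 4.27% and 13.4% of all genes). Without the squamous-rich libraries 1 was called in COM (0.475% of all genes).

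Clca4b showed the widest difference (gene ID 99709, chromosome 3, 144910921 to 144932529). Its levels were 15.64, 2.94 and 3.82 FPKM in Control. They were 137.64, 268.80 and 206.18 FPKM in DSS, and 350.67, 526.43, 398.28 and 156.36 FPKM in WT. KO libraries had 136.57, 287.86, 60.76 and 211.11 FPKM, and COM libraries 78.44, 252.46, 157.25 and 169.77 FPKM. The lowest DSS-treated library, KO 3, lay well above the highest Control library. Of all tested genes, 4.2% lay higher without overlap in the DSS-treated libraries. Within Control the first library was several times above the others. Clca4b rose by 4.86 ± 0.62 in DSS (adjusted p = 7.07e-04), 5.59 ± 0.58 in WT (2.17e-04), 4.47 ± 0.58 in KO (0.00185) and 4.49 ± 0.58 in COM (0.00126). Among 13263 genes its log2 fold change ranked 1 in WT, in KO, in COM and in the DSS-treated mean, and 16 in DSS. All 4 calls held with each library left out in turn, and also without each of the 3 sets of libraries that stood apart. They did not hold in DSS, KO or COM when the fit used only the compared groups (adjusted p = 0.0562, 0.101 and 0.0522), in which 0, 2 and 15 of all 13263 genes were called. KO 2, a library low in Hox genes, was the highest of the KO libraries, and Control 3 lay between the other Control libraries.

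The 250 bases upstream of the annotated start of Clca4b are shown because this gene changed most (RefSeq, GRCm38.p6, chr3:144932530-144932779, minus strand, 5′ to 3′). Capitals mark matches on either strand to TATAAA or TATATA, which overlap nowhere except within the repeat itself.
Clca4b: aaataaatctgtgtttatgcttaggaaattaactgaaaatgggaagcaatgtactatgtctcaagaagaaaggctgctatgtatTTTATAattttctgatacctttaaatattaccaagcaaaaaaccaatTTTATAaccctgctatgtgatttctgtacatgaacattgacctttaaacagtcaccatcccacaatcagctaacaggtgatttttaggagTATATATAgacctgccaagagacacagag
The TATATA run began 29 bases before the start. Of 32851 windows of the same length upstream of annotated starts, 5.25% held TATATA and 12.4% TATAAA on either strand. A match describes letters only and is no evidence of a bound factor.

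Clca4a, the neighbour of Clca4b and its closest paralog in transcript sequence, did not pass the test in any comparison with Control (gene ID 99663, chromosome 3, 144952486 to 144975045). It lay at 182.91, 248.56 and 240.87 FPKM in Control and at 318.20, 174.90 and 258.77 FPKM in DSS. Levels were 251.26, 375.29, 320.50 and 285.15 FPKM in WT and 246.12, 635.43, 345.91 and 426.89 FPKM in KO. COM had 173.83, 202.66, 258.95 and 228.29 FPKM. Control, DSS and COM overlapped. All WT libraries lay above Control, at 251.26 to 375.29 FPKM against a highest Control value of 248.56 FPKM. Of all tested genes, 17.1% lay higher without overlap in WT. The highest value was that of KO 2, a library with low Hox genes. The change was 0.13 ± 0.28 in DSS (adjusted p = 0.783), 0.45 ± 0.27 in WT (0.225), 0.81 ± 0.27 in KO (0.0909) and -0.06 ± 0.27 in COM (0.925). Their 95% confidence intervals, not adjusted for multiple tests, were -0.47 to 0.73, -0.11 to 1.02, 0.25 to 1.37 and -0.62 to 0.51. Without KO 1 the KO difference from Control passed, at 1.03 (adjusted p = 0.0454).

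Because both genes are measured in the same library, their ratio does not depend on library scaling apart from the pseudocount. The ratio of Clca4b to Clca4a (FPKM + 1 for each) ranged from 0.0158 to 0.0905 in the 3 Control libraries and from 0.178 to 1.53 in the 15 DSS-treated libraries, without overlap. On the log2 scale its mean was -5.03 ± 1.37 in Control, -0.30 ± 0.91 in DSS, 0.10 ± 0.65 in WT, -1.37 ± 0.76 in KO and -0.49 ± 0.61 in COM (SD). The DSS-treated mean was 4.50 higher than that of Control (exact permutation test over libraries, two-sided, p = 0.00245, the smallest that 816 regroupings can give). Leaving out 1 library at a time gave differences of 4.03 to 5.29. Clca4b exceeded Clca4a in 3 of 4 WT libraries, in DSS 2 (ratio 1.53, the highest of all libraries) and in COM 2 (1.24). In the other libraries, among them all 3 Control libraries and all KO libraries, Clca4a exceeded Clca4b.

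**Figure D2:**
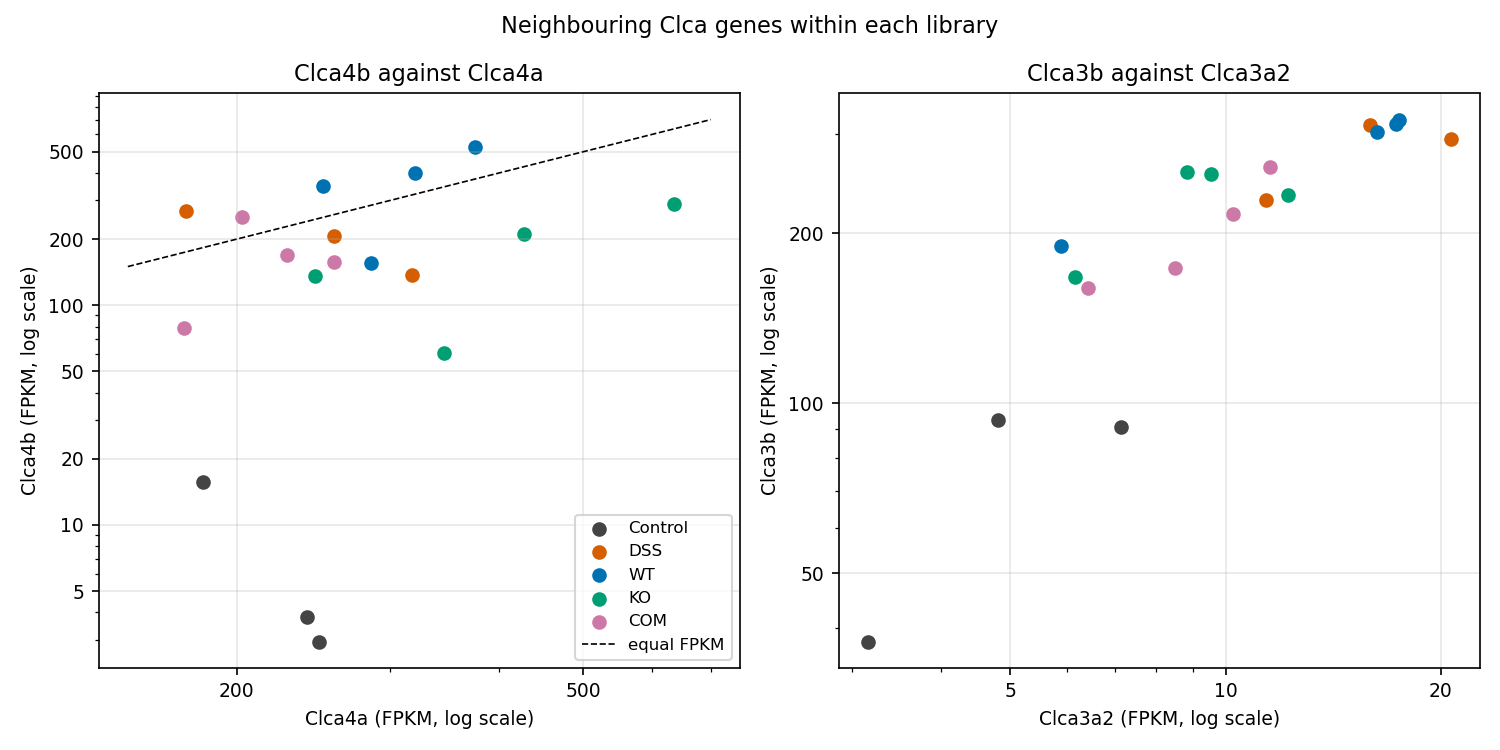
Clca4b against Clca4a (left) and Clca3b against Clca3a2 (right), in FPKM on log axes, with 1 point for each of 18 libraries. On the left the 3 Control points lie below all others at the same Clca4a level (ratio of 0.0158 to 0.0905), and on the right the Control points are the lowest in Clca3b, with ratios of Clca3b to Clca3a2 of 9.32 to 16.2 against 13.6 to 27.8 in the DSS-treated libraries.

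Clca3b, known as Clca4 in older naming, was the next in size of change (gene ID 229927, chromosome 3, 144822623 to 144849302). Control libraries had 93.29, 90.73 and 37.79 FPKM, and DSS libraries 229.12, 294.07 and 311.54 FPKM. WT libraries had 312.36, 318.33, 302.45 and 190.34 FPKM. KO libraries had 255.31, 257.27, 167.13 and 234.45 FPKM, and COM libraries 159.80, 173.43, 216.75 and 262.19 FPKM. Every DSS-treated library exceeded every Control library, as for 4.2% of all tested genes, and the lowest value was that of Control 3. Clca3b rose by 1.99 ± 0.30 in DSS (adjusted p = 0.00133), 1.99 ± 0.28 in WT (5.58e-04), 1.70 ± 0.28 in KO (0.00433) and 1.53 ± 0.28 in COM (0.00685). The calls held with each library left out in turn. In COM the call did not hold without the libraries rich in squamous transcripts (1.49, adjusted p = 0.0699).

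Clca3a2, immediately next to Clca3b, was much less abundant (gene ID 80797, chromosome 3, 144780581 to 144819623). Its levels were 4.81, 7.13 and 3.16 FPKM in Control, 11.40, 20.63 and 15.93 FPKM in DSS, and 17.30, 17.48, 16.28 and 5.89 FPKM in WT. KO libraries had 9.54, 8.83, 6.16 and 12.21 FPKM, and COM libraries 6.42, 8.49, 10.25 and 11.55 FPKM. DSS lay wholly above Control, as for 19.4% of all tested genes, whereas WT 4, KO 3 and COM 1 lay within the Control range. Clca3a2 rose by 1.51 ± 0.36 in DSS (adjusted p = 0.0115) and by 1.29 ± 0.34 in WT (0.0139). The change was 0.78 ± 0.34 in KO (0.196) and 0.78 ± 0.34 in COM (0.163), neither past the threshold. The ratio of Clca3b to Clca3a2 (FPKM + 1 for each) ranged from 9.32 to 16.2 in Control and from 13.6 to 27.8 in the DSS-treated libraries. These ranges overlapped, with a mean log2 of 3.58 ± 0.41 (SD, n = 3) and 4.31 ± 0.27 (n = 15). The DSS call of Clca3a2 was lost without DSS 2 (1.32, adjusted p = 0.0516) and the WT call without Control 3 (1.04, adjusted p = 0.0689). Without the acinar-rich libraries the DSS call was also lost (1.90, adjusted p = 0.0612). Without the libraries low in Hox genes both were lost (1.25 in DSS and 1.04 in WT, adjusted p = 0.0985 and 0.0863). The call in the DSS-treated mean was lost without Control 3 (0.85, adjusted p = 0.0958) and without the low-Hox libraries (0.84, 0.122).

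The upstream sequences of Clca3a2 and Clca3b are shown because the genes are adjacent and varied together across libraries. A local alignment of their 250-base upstream windows found a stretch of 69 bases, 68 of them identical, with no gap and the substitution G40A, counted from 1 at the 5′ end of the printed stretch, Clca3a2 first. Capitals mark the octamer letters ATGCAAAT (RefSeq, GRCm38.p6, minus strand, chr3:144819495-144819563 for Clca3a2 and chr3:144849311-144849379 for Clca3b).
Clca3a2: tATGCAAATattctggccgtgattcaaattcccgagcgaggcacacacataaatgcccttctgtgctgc
Clca3b: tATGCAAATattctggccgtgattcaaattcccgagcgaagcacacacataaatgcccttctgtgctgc
The stretch began 69 bases before the start of Clca3a2 and 77 bases before that of Clca3b, counted from the start used in the RefSeq table. For Clca3a2 that start lies 129 bases inside the gene's annotated upstream end, and for Clca2 337 bases, so the printed Clca3a2 stretch lies within the annotated span of the gene. For Clca3a1, Clca3b and Clca4b the start is the end of the annotated span. The octamer occurred on either strand in 1.6% of the 32851 upstream windows. No other pair of the 5 members with an upstream sequence in the table (Clca2, Clca3a1, Clca3a2, Clca3b and Clca4b) shared an exact run longer than 9 bases, against 39 bases for Clca3a2 and Clca3b. Because the starts lie at different places relative to the gene ends, the windows need not cover matching positions. Likeness outside the windows was not searched. TTTATG, letters bound by CDX factors, occurred in the windows of Clca3a2, Clca3b and Clca4b (10.8% of all), and TTCNNNGAA, the STAT motif, in none of the 5 (7.02% of all). TATATA also occurred in the Clca3a1 window, from 99 bases before the start. An exact form of the NF-kB motif occurred in the Clca3a2 window alone of the 5, from 105 bases before the start on the reverse strand (0.14% of all). These motifs were searched on both strands and were chosen after some of the sequences had been read.

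Clca3a1 was low in level, with an SD of 10.2% (COM) to 26.9% (Control) of the group mean (gene ID 12722, chromosome 3, 144729677 to 144760977). Control libraries had 2.31, 3.43 and 2.13 FPKM, and DSS libraries 5.06, 7.22 and 5.69 FPKM. WT libraries had 7.17, 8.01, 5.99 and 5.09 FPKM, KO libraries 4.92, 5.93, 4.60 and 5.82 FPKM, and COM libraries 4.45, 3.94, 4.95 and 4.11 FPKM. All DSS-treated libraries lay above Control without overlap, as for 4.2% of all tested genes. Clca3a1 rose by 0.95 ± 0.16 in DSS (adjusted p = 0.00216), 1.06 ± 0.15 in WT (5.09e-04), 0.81 ± 0.15 in KO (0.00679) and 0.58 ± 0.15 in COM (0.0281). The COM call was lost without Control 3, COM 1, COM 3 or COM 4 (adjusted p up to 0.0934) and after quantile normalization (0.44, adjusted p = 0.0855). Without the libraries low in Hox genes the KO call was lost (0.67, adjusted p = 0.0538), as was the COM call (0.48, adjusted p = 0.0996). The COM call was also lost without the squamous-rich libraries (0.53, adjusted p = 0.0999). Of 7 marker genes of lymphatic endothelium, 6 rose in the DSS-treated mean, where 13.8% of all genes were called higher, among them Ccl21a (1.46 ± 0.21), Mmrn1 (1.16 ± 0.15) and Pdpn (0.98 ± 0.12). The mean log2(FPKM + 1) of these 7 markers was 2.13 to 2.32 in Control and 2.79 to 3.45 in the DSS-treated libraries, also without overlap, and the defining marker Prox1 stood at 0.21 ± 0.12 (adjusted p = 0.217). The part of lymphatic endothelium in the difference of Clca3a1 was not tested.

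Clca1, the secreted mucus protein of goblet cells, was the family's most abundant transcript (gene ID 23844, chromosome 3, 145004537 to 145032776). It lay at 1373.94, 1399.31 and 483.73 FPKM in Control and at 2660.53, 2517.91 and 3253.17 FPKM in DSS. WT libraries had 1834.61, 1838.36, 2205.70 and 1768.26 FPKM. KO libraries had 3322.49, 2281.30, 1961.42 and 1751.78 FPKM, and COM libraries 1789.08, 1183.74, 1939.92 and 1959.06 FPKM. DSS, WT and KO lay above Control without overlap, as for 19.4%, 17.1% and 8.07% of all tested genes, in that order. COM 2 lay within the Control range. Clca1 rose by 1.52 ± 0.33 in DSS (adjusted p = 0.00783), 0.96 ± 0.31 in WT (0.0367) and 1.21 ± 0.31 in KO (0.0368). It stood at 0.79 ± 0.31 in COM (0.134). The value of Control 3 carried much of these differences: without it they were 1.01 in DSS (adjusted p = 0.0176), 0.46 in WT (0.197), 0.70 in KO (0.0867) and 0.28 in COM (0.494). Without Control 1 the COM difference passed, at 1.03 (adjusted p = 0.0488). The WT call was also lost without any 1 of the 4 WT libraries, and the KO call without KO 1, KO 2 or KO 3. Without the filter on low values neither passed (adjusted p = 0.0534 in WT and 0.0561 in KO). The DSS call held with each library left out in turn. It was lost without the acinar-rich libraries (1.37, adjusted p = 0.158), the squamous-rich ones (1.59, 0.0773) or those low in Hox genes (0.90, 0.0551).

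Other goblet cell and mucus genes did not move as a block with Clca1. Of 12 such genes, 3 rose and 1 fell in the DSS-treated mean (13.8% of all genes called higher and 7.16% lower), with a median of 0.11 against 0.039 over all genes. Fcgbp, another abundant mucus protein, rose by 1.09 ± 0.20 and Capn9, a calpain, by 0.58 ± 0.09, and the kallikrein gene Klk1 fell by 0.40 (adjusted p = 0.00179, 8.35e-04 and 0.0430). In Control 3, where Clca1 was lowest of all libraries, Muc2, the gel-forming mucin of the colon, lay at 2401.18 FPKM, the highest of all libraries. Fcgbp lay at 157.88 FPKM there, the lowest of all. The mean log2(FPKM + 1) over the 12 genes was 8.34 in Control 3, against 7.27 and 8.01 in the other Control libraries.

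Clca2 remained near the lower limit of measurement (gene ID 229933, chromosome 3, 145070260 to 145099443). It lay at 0.49, 0.76 and 0.20 FPKM in Control, 0.51, 1.81 and 0.88 FPKM in DSS, and 0.30, 0.40, 0.41 and 0.58 FPKM in WT. KO libraries had 0.43, 0.51, 0.49 and 0.40 FPKM, and COM libraries 0.23, 0.18, 1.08 and 0.31 FPKM. Its highest values were those of DSS 2 and COM 3, the same libraries in which the squamous keratin gene Krt5 was highest, at 88.14 and 94.28 FPKM. Krt5 was at 34.51 FPKM in WT 2, 22.34 FPKM in WT 4 and 13.74 FPKM in KO 3, where Clca2 lay at 0.40, 0.58 and 0.49 FPKM. In the other 13 libraries Krt5 lay at 0.71 FPKM or less. In a fit without the filter on low values Clca2 changed by 0.45 ± 0.22 in DSS against Control (adjusted p = 0.193).

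**Figure D3:**
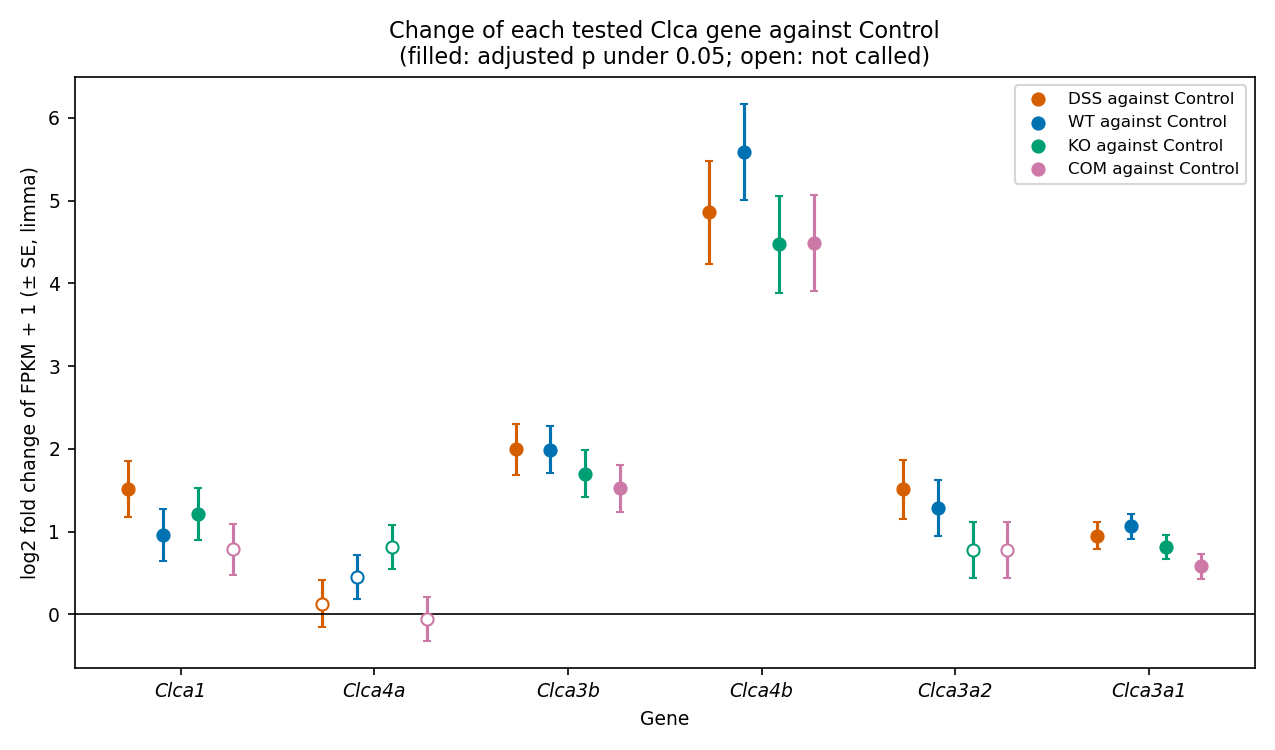
Log2 fold change of FPKM + 1 against Control for the 6 tested Clca genes, with 1 point for each DSS-treated group and bars for the SE from limma. Filled points passed an adjusted p under 0.05. Clca4b stands at 4.47 to 5.59 in all 4 groups, Clca3b at 1.53 to 1.99, and Clca4a is open in all 4.

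The strains were compared with PBS after DSS, and with one another, to ask whether gavage altered the family. Across these 6 comparisons limma called 0 of 36 member differences. Of the 36, 7 had an unadjusted p under 0.05. The share of all genes at that unadjusted level is not given here, so the 7 cannot be read as an excess. The 36 also share groups and members that varied together. At an adjusted p under 0.05 the share of all genes called against DSS was 0% in WT, 0.166% in KO and 0.0151% in COM. It was 0.829% in KO against WT, 0.00754% in COM against WT and 0.0302% in COM against KO. Groups did not overlap in 4 of the 36. Clca1 in WT lay below every DSS library, as did 6.01% of all genes. Clca1 in COM lay below every DSS library, at -0.73 ± 0.31 (adjusted p = 0.417), and Clca3a1 in COM lay below every DSS library, at -0.37 ± 0.15 (0.377), and below every WT library, at -0.48 ± 0.14 (0.273). Of all genes, 9% lay lower without overlap in COM against DSS and 5.69% in COM against WT. Clca4a stood at 0.68 ± 0.27 in KO against DSS (0.229) and at -0.86 ± 0.25 in COM against KO (0.238). Clca3a2 stood at -0.74 ± 0.34 in KO and -0.73 ± 0.34 in COM against DSS (0.294 and 0.446). For Clca4b, WT had the highest mean of any group, but the difference was 0.73 ± 0.58 from DSS (0.9996), with a 95% confidence interval of -0.50 to 1.97. KO and COM stood at -1.12 ± 0.54 and -1.11 ± 0.54 from WT (0.257 and 0.464). The intervals of these last differences, -2.26 to 0.02 and -2.25 to 0.04, include 0 and differences as large as that of Clca3b from Control. These intervals are not adjusted for multiple tests.

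Within the 15 DSS-treated libraries, members were compared for how they varied together. The Control libraries were left out because they lay apart for Clca4b, Clca3b and Clca3a1. Of 15 pairs of the 6 tested members, 6 passed in both Pearson's r and Spearman's rho (permutation tests, Benjamini-Hochberg adjusted over the 15 pairs), and these were all the pairs among Clca3a1, Clca3a2, Clca3b and Clca4b. The closest was Clca3a2 with Clca3b, at r = 0.895 and rho = 0.868 (raw permutation p = 4e-05 and 8e-05, adjusted p = 6e-04 and 0.0012). Without WT 4 and DSS 2, the libraries farthest from the median of Clca3a2, r was 0.912, and it was 0.882 after subtraction of group means. The other 5 pairs had r = 0.700 to 0.757 and rho = 0.707 to 0.761 (adjusted permutation p = 0.00567 to 0.00947 for r and 0.00987 to 0.0109 for rho). After subtraction of group means their r was 0.595 to 0.768, and without the 2 farthest libraries 0.556 to 0.801. Clca4a and Clca4b had r = 0.24 and rho = 0.254 (adjusted permutation p = 0.558 and 0.553), and Clca1 with Clca4b r = -0.0843 and rho = -0.121 (0.85 and 0.772). The libraries share a tissue makeup that varies between them, and Clca3a1 and Clca3a2 share some read sequence.

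**Figure D4:**
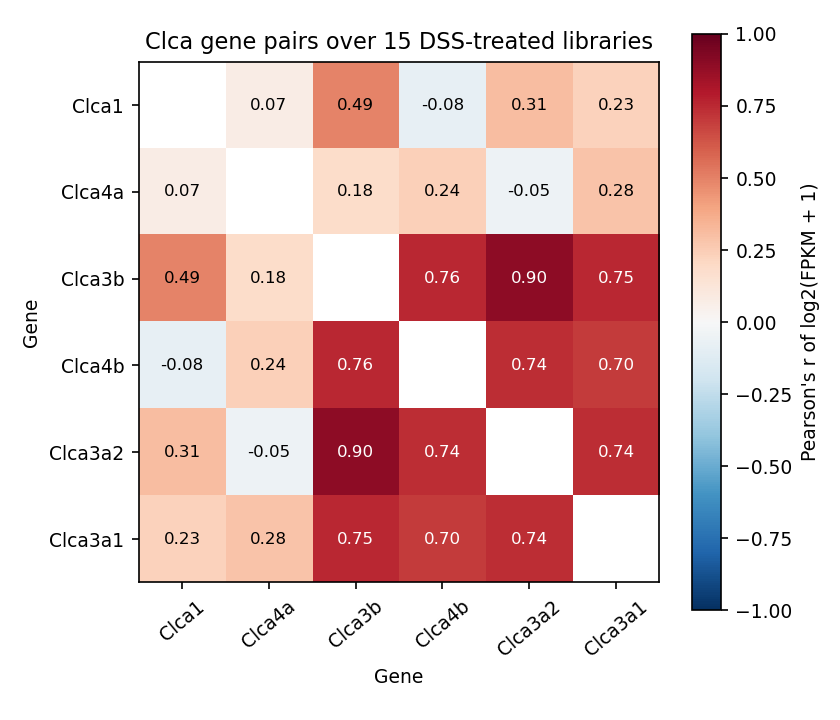
Pearson's r of log2(FPKM + 1) for each pair of the 6 tested Clca genes over the 15 DSS-treated libraries, on a colour scale from -1 to 1. The 4 genes Clca3b, Clca4b, Clca3a2 and Clca3a1 form a block at 0.700 to 0.895, and Clca1 and Clca4a lie outside it.

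The genes most like each member were taken as those with the highest Pearson's r of log2(FPKM + 1) over all 18 libraries among 12864 named genes, and r over the 15 DSS-treated libraries is given beside it as a description. For Clca4b these were Mmp3, a matrix metalloproteinase (0.939, and 0.74 within the DSS-treated libraries), the adhesion receptor gene Adgrf1 (0.927 and 0.73) and Cemip2 (0.921 and 0.722). For Clca3b they were Adgrf1 (0.957 and 0.753), Wfdc17 (0.948 and 0.731) and the sorting receptor gene Sorl1 (0.948 and 0.724). Adgrf1 was also the third for Clca3a1 (0.9 and 0.705), after Egfl7, an endothelial gene (0.908 and 0.802), and Zc3h12a, which encodes a ribonuclease that degrades cytokine messages (0.908 and 0.828). For Clca3a2 they were the retinol dehydrogenase gene Rdh10 (0.915 and 0.848), Trim10 (0.892 and 0.865) and Tmc6 (0.887 and 0.817). For Clca1 they were Fcgbp (0.962 and 0.881), the BMP antagonist gene Grem1 (0.937 and 0.782) and the matrix gene Fbln1 (0.898 and 0.794). For Clca4a they were Sec61b, a subunit of the protein translocation channel (0.845 and 0.886), Ly6g6c (0.841 and 0.903) and Bmp8b (0.816 and 0.867), none of which differed past the threshold between the DSS-treated groups and Control. Genes picked as the highest of 12864 have correlations that are high by selection.

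Genes of anion secretion outside the family were called at a share near that of all genes. Of 15 such genes, 2 rose and 2 fell in the DSS-treated mean (21% of all genes called, 13.8% higher and 7.16% lower), with a median of -0.16 against 0.039 over all genes. Slc9a3r1, a scaffold of apical transporters, fell by 0.69, the anoctamin gene Ano9 fell by 0.61, and its relative Ano6 rose by 0.41 ± 0.11 (adjusted p = 0.00151, 0.00642 and 0.0191). Ano1, the gene of the channel on which CLCA1 acts, stood at 0.85 ± 0.33 and did not pass (adjusted p = 0.0764). Markers of surface colonocytes fell in 3 of 12 genes, with Cdhr5 at -0.46 ± 0.08 and Cdhr2 at -0.41 ± 0.10 (adjusted p = 0.00138 and 0.00841), and none rose. Markers of blood endothelium rose in 7 of 7 genes, and smooth muscle markers fell in 5 of 8, in the same comparison with 13.8% of all genes called higher and 7.16% lower. The part of these shifts in cell type markers in the Clca differences was not tested.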

How the data were processed

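Whole-colon RNA was sequenced on a DNBSEQ platform, per the labels' protocols, and the authors deposited FPKM values (18349 genes, 18 libraries). Per the submitters' processing notes the build was mm10. Aligner, FPKM program, annotation and filters: not given in the sources used here. Gene identifiers were matched to symbols of RefSeq GRCm38.p6 (18230 matched, 119 not). The 13263 genes reaching 1 FPKM in 3 or more libraries were analysed as log2(FPKM + 1). A single model of all 18 libraries and 5 groups was fitted with limma (version 3.58.1, in R 4.3.3), using a mean-variance trend. Tests were two-sided, with Benjamini-Hochberg adjustment over all tested genes within a comparison. FPKM are not counts, so no count model was used. The model was tested on simulated data. A ratio of 2 genes was tested by exact permutation over libraries, and correlations with 100000 permutations (Python 3.11.15, numpy 2.4.6). The members, lists and alternatives were chosen with earlier results of these data known. By rule, all 7 members were named, with the 3 genes most similar to each by Pearson's r, and up to 3 members of each gene list, called ones with the largest change first. Predicted genes, pseudogenes, receptor segments and mitochondrial genes were left out of the similar genes. RefSeq upstream windows were found for 5 of 7 members. Alternatives were a pseudocount of 0.1, no filter, a filter of 5 FPKM, TPM scaling, quantile normalization, a replicate block, fits on the compared groups alone, each library left out, and libraries rich in acinar or squamous or low in Hox transcripts left out.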

Additional observations from a re-analysis of the deposited data

Results flagged for a closer look

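In groups of 4 libraries, single values far from the others of their group were looked for with Dixon's criterion, in 21 groups of members and strains, where chance gives about 1 in 20. There were 4. Clca3a2 in WT 4 lay at 5.89 FPKM, against 16.28 to 17.48 FPKM in the other WT libraries, and Clca3b in the same library lay at 190.34 FPKM, against 302.4 to 318.3 FPKM. Clca1 in WT 3 lay at 2205.7 FPKM, against 1768 to 1838 FPKM in the other WT libraries. Clca2 in COM 3, a library rich in squamous transcripts, lay at 1.08 FPKM, against 0.18 to 0.31 FPKM in the other COM libraries.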

How the results depend on the processing

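The increases of Clca1, Clca3a1, Clca3a2, Clca3b and Clca4b from Control kept their direction under every alternative run. Of 17 member calls against Control in the 4 DSS-treated groups, 12 held with each library left out. Fitted on the compared groups alone, the members called numbered 0 in DSS, 0 in KO, 0 in COM and 3 in WT, against 0%, 0.0151%, 0.113% and 7.66% of all genes. Without the acinar-rich libraries, 3 were called in DSS. Without the libraries low in Hox genes, 3 were called in DSS, 3 in WT, 2 in KO and 3 in the DSS-treated groups together. Without the squamous-rich libraries, 1 was called in COM. With 1 library left out, counts ranged from 4 to 5 in DSS, 3 to 5 in WT, 3 to 4 in KO, 2 to 4 in COM and 3 to 5 for the DSS-treated groups together, where the low values of WT and of the groups together were those without Control 3. Clca4a changed sign without a call: in DSS it was -0.34 without the acinar-rich libraries and -0.062 to 0.37 with 1 library left out. In COM it was 0.0096 after quantile normalization, 0.0027 without the low-Hox libraries and -0.19 to 0.043 with 1 library left out. Apart from quantile normalization, these fits use fewer libraries, and the cause of other changes was not tested. Rescaling to TPM moved the median of all genes in WT against Control to 0.1.

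Libraries with the same replicate number in the labels were not consistently alike. Of 33 same-numbered pairs, 13 had correlated deviations over 0.1 (range -0.473 to 0.392), and 3 of 18 libraries correlated best with their own number. No share for differently numbered pairs was set beside these counts, so this check cannot exclude a pairing or a batch. With the replicate number as a block, the calls of Clca1 in WT (0.99, adjusted p = 0.0572) and in KO (1.24, adjusted p = 0.0691) were lost, and the block changed no other call of a member. Both calls were also lost without the filter on low values (adjusted p = 0.0534 and 0.0561).

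Depth is unknown, so the precision of low values such as those of Clca2 cannot be stated.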
